A study of Mus musculus with 8 samples.

Results

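Glucuronosyl-, sulfo- and glutathione transferases are the enzymes that attach glucuronic acid, sulphate or glutathione to hormones, bile acids, drugs and oxidised lipids. They were followed here in mouse livers that expressed A20 or a control protein, before and after liver resection. The genes were chosen by name, with earlier results of these data known. All probe sets annotated to 1 symbol were taken if it began with Ugt1, Ugt2, Ugt3, Mgst, or Sult and a digit. Those with 1 symbol beginning with Gst, a class letter (a, m, o, p, k, t or z) and a digit were taken too. This gave 59 of the 34945 probe sets with 1 symbol, for 46 genes, of which 44 passed the filter on low signal and were tested among 17790 genes. Gsto2 and Sult3a1 did not pass, with signals of 25.8 to 40.0 and 22.7 to 40.4 over the 8 arrays. The genes tested were 8 of the UGT2 family, 2 of UGT3, 12 of the sulfotransferases (SULT), 3 microsomal glutathione transferases (MGST), and of the glutathione transferases (GST) 3 of class alpha, 7 of mu, 2 of pi, 4 of theta and 1 each of omega, kappa and zeta. No probe set was annotated to a single Ugt1 symbol. The transcripts of that locus share their last exons.

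All mice were BALB/c, 8 weeks old, and had been injected in the penile vein 5 days before resection with a recombinant adenovirus, which expresses its transgene in a fraction of hepatocytes only. The groups were rAd.A20 livers 24 h after a 78% resection (post-A20), rAd.A20 livers before resection (pre-A20), rAd.βgal livers 24 h after the same resection (post-βgal) and rAd.βgal livers before resection (pre-βgal), where βgal is the bacterial β-galactosidase. Every group had therefore received virus, and no group without virus or without surgery was analysed here. A20 is an inhibitor of NF-κB signalling. Each group had 2 Affymetrix Mouse Genome 430 2.0 arrays, and each array carried pooled liver RNA of 3 mice. For the post-A20 arrays the record of the treatment names βgal, but their titles and source names say A20 and were followed. RNA before resection came from the resected lobes and RNA after it from the remnant. With pooled RNA, p-values measure only the spread between these pools. The sources do not say whether pools before and after share mice, and the tests treated all pools as independent.

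The families work side by side in hepatocytes. Uridine diphosphate (UDP) glucuronosyltransferases sit in the membrane of the endoplasmic reticulum and use UDP-glucuronic acid, cytosolic sulfotransferases use the sulphate donor PAPS, and glutathione transferases couple the tripeptide glutathione to reactive molecules, mostly in the cytosol. The products are more soluble in water and leave the cell through export pumps. Many of these genes are targets of the nuclear receptors CAR and PPARα or of NRF2, the factor that responds to oxidative stress, and the liver is their main site of expression.

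Values are the authors' normalized intensities on a linear scale. Array medians lay between 153 and 166. Array 1 of pre-βgal stood apart, with a 3′ to 5′ signal ratio of 6.997 for the β-actin control probe sets and 3.44 for GAPDH, measures of RNA integrity on these arrays. The ratios on post-βgal array 1 were 3.64 and 1.48, and the other 6 arrays had 1.27 to 1.62 for β-actin and 0.975 to 1.16 for GAPDH. Calls left without both arrays are given with the counts. The 9 hepatocyte markers tested of 10 listed summed to 86100 to 92432 in post-A20, 79952 to 85813 in pre-A20, 79056 to 81794 in post-βgal and 72635 to 76400 in pre-βgal, with no marker at 0. Single markers did not all follow this order. Alb had 18087 and 18682 in post-A20 and 18117 and 18975 in pre-βgal, and Ttr 16288 and 16177 against 16626 and 18061. Apob had 6260 and 6348 in post-A20 and 1047 and 1308 in pre-βgal, and Tat 6086 and 8760 against 1766 and 4672. In bulk liver RNA, fewer cells of a type and less RNA per cell cannot be told apart.

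Differences are log2 fold changes ± standard error on log2(intensity + 16), from 1 limma model over all 17790 genes with 2-sided tests and Benjamini-Hochberg adjustment over all of them. A gene was called at an adjusted p under 0.05. A second p beside a call is the highest found when 1 array was left out, with that array named. Before resection, 8 of 44 conjugating enzyme genes were called higher and 1 lower in pre-A20 than in pre-βgal livers, against 1.31% higher and 3.32% lower of all genes tested. After resection, 0 were called either way between post-A20 and post-βgal livers, against 0.512% higher and 0.905% lower of all genes. An unadjusted p under 0.05 was found for 15 of the 44, against 3833 of all 17790 genes. The smallest adjusted p among members was 0.0909. Resection in A20 livers gave 0 higher and 8 lower of 44, against 1.22% and 0.793% of all genes. Resection in βgal livers gave 1 higher and 5 lower, against 2.48% and 1.51%. Taken as 1 set, the conjugating enzyme genes were thus called higher with A20 before resection, and lower after resection, in larger shares than all genes tested. The 8 higher calls with A20 before resection were of 4 UGT2 and 4 SULT genes. No UGT3, GST or MGST gene was called higher there, and the 1 lower call was of GST mu.

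The averages over both factors draw on all 8 arrays and gave more calls. Averaged over resection, A20 livers had 14 of 44 members higher and 3 lower than βgal livers (all genes 3.39% and 5.20%), with a median log2 fold change of 0.11 against −0.00 over all genes. Averaged over transgene, resection gave 1 higher and 16 lower (all genes 3.62% and 2.52%), with a median of −0.45 against −0.01. For the interaction, which asks whether A20 changed the response to resection, 0 of 44 members were called, against 0.0281% of all genes. An unadjusted p under 0.05 was found for 8 of 44 members and for 3082 of all 17790 genes, a similar share. The 4 comparisons of 2 groups share arrays, so that a high signal in the pre-A20 arrays raises the A20 difference before resection and lowers the resection difference in A20 livers at once. The averages are made of these same differences, so a call in an average is not separate support for a call in 1 of them.

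Most calls lay close to the threshold. Of the 57 calls over the 5 comparisons that had any, 7 were kept with each array left out in turn, namely Sult5a1 with A20 averaged over resection, and Gsta2, Gstm7, Sult1c2, Sult1e1, Sult5a1 and Ugt2b5 with resection averaged over transgene. A fit on fewer arrays has fewer residual degrees of freedom, and 3 of the 9 calls of A20 before resection were lost without any 1 of the 4 arrays after resection, with the fold changes as before. Without pre-A20 array 2, all 9 were lost (adjusted p 0.0623 to 0.236). The log2 fold change of Sult5a1 was 1.40 with and without that array, while those of Ugt2b38 and Sult1c2 were 0.80 and 0.52 without it, against 1.496 and 0.84 with it. Without pre-βgal array 2, more members were called there. The only pre-βgal array then left was array 1, which had the highest 3′ to 5′ ratios. Without both array 1 of pre-βgal and array 1 of post-βgal, which had the high 3′ to 5′ ratios, 1 of the 9 calls of A20 before resection, 5 of the 17 of A20 averaged over resection and 0 of the 6 of resection in βgal livers were left.

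**Figure D1:**
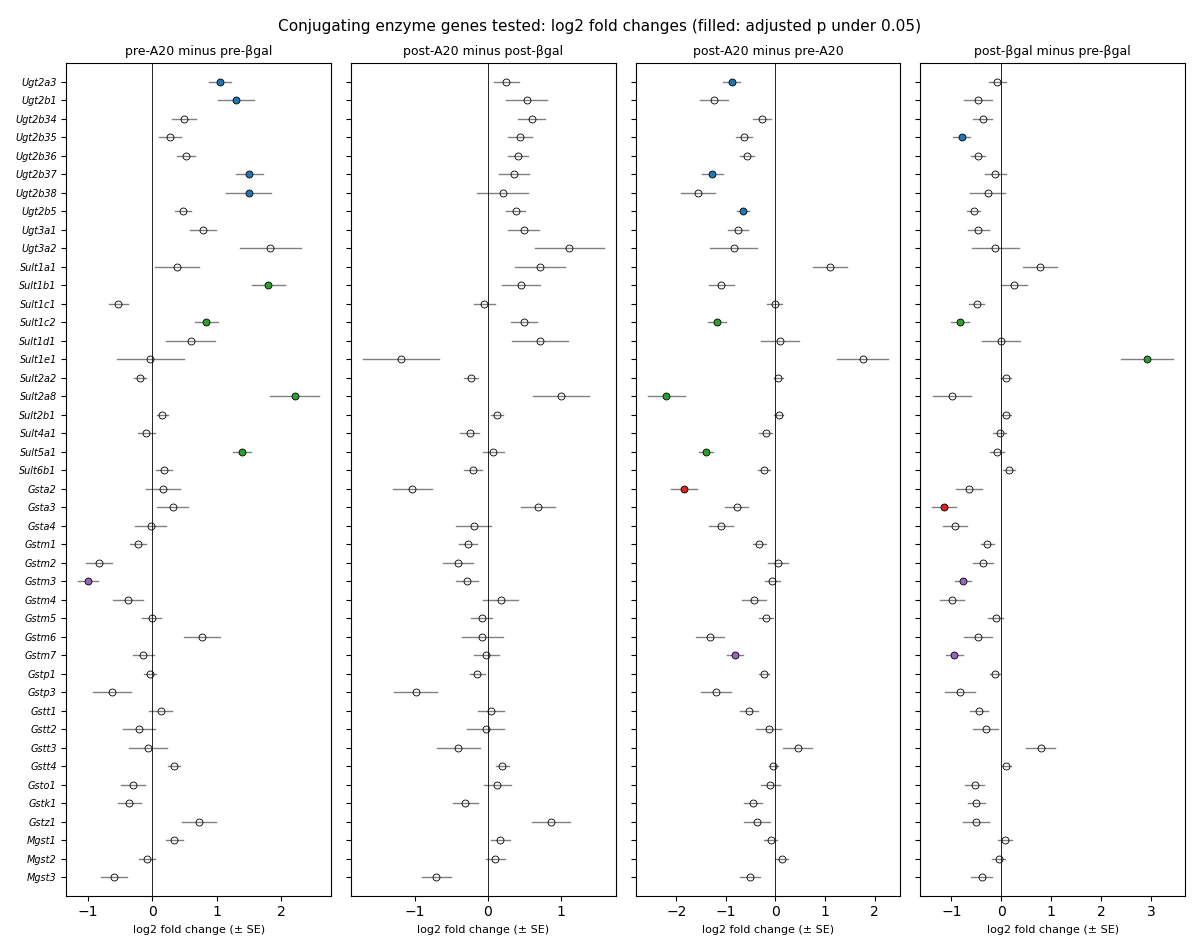
Log2 fold changes on log2(intensity + 16) of the 44 genes tested (points, with bars of 1 standard error), in 4 panels for the 4 comparisons of 2 groups, by family from UGT2 at the top to MGST at the bottom. Filled points have an adjusted p under 0.05. All 8 UGT2 and both UGT3 genes lie right of 0 for A20 and left of 0 for resection, and the panel for post-A20 against post-βgal has no filled point.

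The UGT2 genes, which glucuronidate steroids, bile acids and drugs, had higher signals with A20 and lower signals after resection in all 8 of 8 genes, before any test is applied. Averaged over resection, 6 of 8 rose in A20 livers, and averaged over transgene, 5 of 8 fell with resection. The genes lie in 1 stretch of chromosome 5 of GRCm38.p6, chr5:86889770-87591611, together with Sult1b1, Sult1d1 and Sult1e1, 11 genes measured over 701.8 kb. Sequence is similar among the Ugt2b genes, so a probe set may also read a neighbour.

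Ugt2a3, which in humans glucuronidates bile acids, had signals of 1518 and 1733 on the post-A20 arrays, 2859.7 and 3153 on pre-A20, 1422 and 1302 on post-βgal and 1352 and 1534 on pre-βgal. The pre-A20 arrays were above the other 6. Ugt2a3 was 1.05 ± 0.17 (adjusted p = 0.0206, 0.177 without pre-A20 array 2) higher in pre-A20 than in pre-βgal on the log2 scale, and the difference was 0.25 ± 0.17 between post-A20 and post-βgal (adjusted p = 0.413). With resection it fell in A20 livers, −0.88 ± 0.17 (adjusted p = 0.0421, 0.246 without pre-A20 array 2), and the difference in βgal livers was −0.08 ± 0.17 (adjusted p = 0.8).

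Ugt2b37 had the same order of groups, with 269 and 222 in post-A20, 544 and 691 in pre-A20, 186 and 189 in post-βgal and 163 and 260.2 in pre-βgal. The rise with A20 before resection was 1.502 ± 0.21 (adjusted p = 0.0131, 0.144 without pre-A20 array 2) and the fall with resection in A20 livers −1.27 ± 0.21 (adjusted p = 0.0257, 0.189 without pre-A20 array 2), while the resection difference in βgal livers was −0.13 ± 0.21 (adjusted p = 0.743). Ugt2b38 had 108 and 105 on the post-A20 arrays, 209 and 572 on pre-A20, 94.6 and 87.0 on post-βgal and 110.1 and 116 on pre-βgal. Its difference before resection, 1.496 ± 0.35 (adjusted p = 0.0488, 0.12 without pre-βgal array 1), rested on 2 arrays that were themselves far apart, 390.5 ± 257 (SD, n = 2 arrays). Ugt2b1 had 2874 and 2649 in post-A20, 6379.6 and 6672 in pre-A20, 2170.2 and 1680.3 in post-βgal and 1914 and 3624 in pre-βgal. Before resection it rose with A20 by 1.30 ± 0.28 (adjusted p = 0.0402, 0.236 without pre-A20 array 2), and array 1 of pre-βgal was well below array 2.

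The other 4 UGT2 genes differed less between groups, and moved by more even amounts before and after resection. Ugt2b5 had 5897 and 6115 on the post-A20 arrays, 9391 and 9544 on pre-A20, 4764 and 4481 on post-βgal and 6377 and 7266 on pre-βgal. All post-resection arrays were below all arrays before resection. Averaged over resection it rose with A20, 0.43 ± 0.09 (adjusted p = 0.0297, 0.102 without post-A20 array 2), and fell with resection, −0.61 ± 0.09 averaged over transgene (adjusted p = 0.00734). Ugt2b36 had 6380.5 and 5806 in post-A20, 8775 and 9374 in pre-A20, 4443 and 4722 in post-βgal and 5821 and 6880.3 in pre-βgal. The rise with A20 was 0.46 ± 0.10 (adjusted p = 0.0296, 0.104 without pre-A20 array 2) averaged over resection, and the change with resection −0.52 ± 0.10 (adjusted p = 0.0189, 0.0933 without post-A20 array 2) averaged over transgene.

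Ugt2b35 had 3590.0 and 2799.6 on the post-A20 arrays, 4952 and 4903 on pre-A20, 2301 and 2387 on post-βgal and 4268 and 3889 on pre-βgal. It fell with resection in βgal livers, −0.79 ± 0.17 (adjusted p = 0.0399, 0.207 without post-βgal array 1), and averaged over transgene, −0.71 ± 0.12 (adjusted p = 0.0107, 0.056 without post-A20 array 2), and its A20 differences of 0.27 ± 0.17 before and 0.43 ± 0.17 after resection were not called. Ugt2b34 had 4625 and 4495 in post-A20, 5384 and 5674 in pre-A20, 2735 and 3311 in post-βgal and 3343 and 4579 in pre-βgal. Averaged over resection, the signal rose with A20 by 0.55 ± 0.13 (adjusted p = 0.0411, 0.138 without post-βgal array 1). Its other probe set read 724 on pre-βgal array 1 and 3725 on pre-βgal array 2, with an A20 difference before resection of 1.15, so the size of the change depended on the probe set and on that array.

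**Figure D2:**
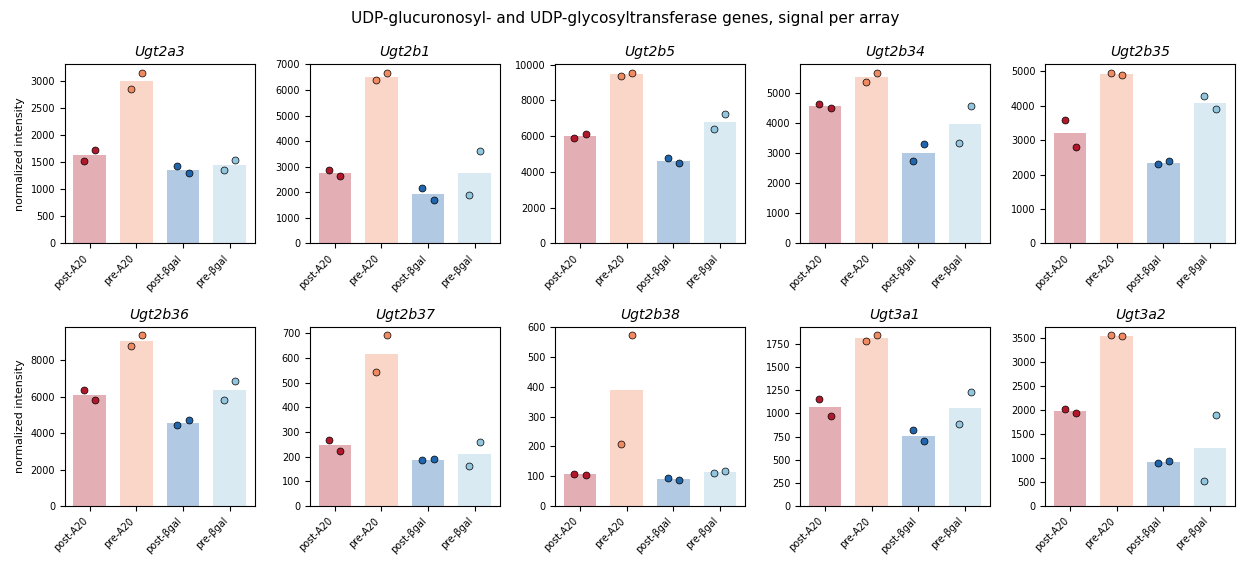
Normalized intensity (linear scale from 0) of the 8 UGT2 and 2 UGT3 genes, with a point for each array and a bar for the mean of the 2 arrays, for post-A20, pre-A20, post-βgal and pre-βgal. The pre-A20 arrays are the highest of the 8 for each of these genes, and pre-βgal array 1 of Ugt3a2 lies at 514 against 1892 on array 2.

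The UGT3 genes, which transfer sugars other than glucuronic acid in humans, are a pair on chromosome 15 (GRCm38.p6 chr15:9279822-9370955). Ugt3a1 had 1161 and 976 on the post-A20 arrays, 1779.6 and 1844 on pre-A20, 816 and 699.7 on post-βgal and 885 and 1234 on pre-βgal. It rose with A20 averaged over resection, 0.63 ± 0.15 (adjusted p = 0.0363, 0.118 without post-A20 array 1), and fell with resection averaged over transgene, −0.61 ± 0.15 (adjusted p = 0.046, 0.184 without post-A20 array 2). Its other probe set gave larger differences the same way, 1.27 and −0.95. Ugt3a2 had 2016 and 1937 in post-A20, 3561 and 3546 in pre-A20, 887 and 928 in post-βgal and 514 and 1892 in pre-βgal, the lowest value being that of the pre-βgal array with the highest 3′ to 5′ ratios. Its rise with A20 averaged over resection was 1.47 ± 0.33 (adjusted p = 0.0359, 0.112 without pre-A20 array 2), and its differences with A20 were 1.83 ± 0.47 before and 1.11 ± 0.47 after resection (adjusted p = 0.066 and 0.224).

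Promoters of 3 members called in 1 or more comparisons are shown, for the motifs they hold, as RefSeq gives them for GRCm38.p6, as the 200 bases before the annotated start, 5′ to 3′ on the strand of the gene. Capitals in the first 2 mark GTTAAT, a recognition motif of HNF1, or ATTAAC where it lies on the opposite strand, and capitals in the last mark TGACNNNGC, the core of the antioxidant response element that NRF2 binds. Ugt2a3 lies at chr5:87337196-87337395 on the minus strand, Ugt3a1 at chr15:9279629-9279828 on the plus strand and Gsta3, a glutathione transferase described below, at chr1:21240385-21240584 on the plus strand.
Ugt2a3: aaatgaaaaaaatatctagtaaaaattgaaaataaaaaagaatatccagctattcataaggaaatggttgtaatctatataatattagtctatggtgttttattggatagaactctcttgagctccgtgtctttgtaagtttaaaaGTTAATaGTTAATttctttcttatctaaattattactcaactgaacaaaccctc
Ugt3a1: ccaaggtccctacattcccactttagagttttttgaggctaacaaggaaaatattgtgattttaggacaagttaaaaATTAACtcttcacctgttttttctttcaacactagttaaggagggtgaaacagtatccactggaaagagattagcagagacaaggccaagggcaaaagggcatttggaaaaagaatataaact
Gsta3: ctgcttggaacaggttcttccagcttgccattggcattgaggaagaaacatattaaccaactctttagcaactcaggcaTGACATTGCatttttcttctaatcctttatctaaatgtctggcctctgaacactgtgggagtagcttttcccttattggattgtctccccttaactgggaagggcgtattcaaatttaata
Promoter windows of 250 bases before to 50 after the start were given for 41 of the 46 genes, 53 windows in all. Searched on both strands, GTTAAT was in 9.43% of the member windows against 7.10% of all 32851 windows, and TGACNNNGC in 7.55% against 12.4%. The core of the xenobiotic response element, GCGTG, was in 20.8% against 32.4%, and CCAAT in 49.1% against 37.4%. A match is a description of these letters and not of binding.

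Among the sulfotransferases, 4 of 12 genes rose with A20 before resection, Sult5a1, Sult1b1, Sult1c2 and Sult2a8, and none fell. All 4 were also called higher averaged over resection, an average that includes the difference before resection. Sult5a1 had 228 and 235 on the post-A20 arrays, 642 and 639 on pre-A20, 252 and 189.6 on post-βgal and 240.1 and 227 on pre-βgal. The pre-A20 arrays were nearly equal and far above the other 6, which overlapped. Before resection, Sult5a1 rose with A20 by 1.40 ± 0.14 (adjusted p = 0.0078, 0.0623 without pre-A20 array 2) and fell with resection in A20 livers, −1.41 ± 0.14 (adjusted p = 0.00361, 0.0523 without pre-A20 array 2). The difference was 0.07 ± 0.14 between post-A20 and post-βgal (adjusted p = 0.782) and −0.09 ± 0.14 with resection in βgal livers (adjusted p = 0.735). Its interaction of −1.32 ± 0.20 had the smallest adjusted p among the 44 members, 0.131, and was not called.

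Sult2a8, a bile acid sulfotransferase of mouse liver, had 1734 and 1058 in post-A20, 5817 and 6809.8 in pre-A20, 699.6 and 643 in post-βgal and 879 and 2073 in pre-βgal. Its mean was 6314 ± 702 in pre-A20 and 1476 ± 844 in pre-βgal (SD, n = 2 arrays each), and the pre-βgal arrays were far apart. Sult2a8 rose with A20 before resection by 2.21 ± 0.38 (adjusted p = 0.0236, 0.193 without pre-A20 array 2) and fell with resection in A20 livers, −2.20 ± 0.38 (adjusted p = 0.0305, 0.213 without pre-A20 array 2). Between post-A20 and post-βgal the difference was 0.997 ± 0.38 (adjusted p = 0.187), with both post-A20 arrays above both post-βgal arrays.

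Sult1b1, which in humans sulphates thyroid hormones, had 246 and 348 on the post-A20 arrays, 494 and 835 on pre-A20, 218 and 201 on post-βgal and 146 and 205 on pre-βgal. Its rise with A20 before resection was 1.80 ± 0.26 (adjusted p = 0.015, 0.127 without pre-A20 array 2), and its resection differences of −1.09 ± 0.26 in A20 livers and 0.25 ± 0.26 in βgal livers were not called (adjusted p = 0.0774 and 0.585). Sult1c2 had 185 and 165 in post-A20, 329 and 520.4 in pre-A20, 116 and 122 in post-βgal and 233 and 217 in pre-βgal. Both groups fell with resection, −1.18 ± 0.18 (adjusted p = 0.0215, 0.148 without post-A20 array 2) in A20 livers and −0.83 ± 0.18 (adjusted p = 0.0467, 0.221 without post-βgal array 1) in βgal livers, and averaged over transgene the change was −1.003 ± 0.13 (adjusted p = 0.00449). With A20 before resection, it rose by 0.84 ± 0.18 (adjusted p = 0.0417, 0.193 without pre-A20 array 2).

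Sult1e1, the oestrogen sulfotransferase, was the member that rose with resection. It had 91.8 and 372 on the post-A20 arrays, 41.8 and 47.3 on pre-A20, 311 and 650.1 on post-βgal and 42.2 and 49.5 on pre-βgal. All 4 arrays before resection were between 41.8 and 49.5, and all 4 arrays after resection were above them, over a wide range. It rose in βgal livers by 2.92 ± 0.52 (adjusted p = 0.0248, 0.128 without post-βgal array 2) and averaged over transgene by 2.34 ± 0.37 (adjusted p = 0.00896). In A20 livers the difference was 1.76 ± 0.52 (adjusted p = 0.135), and array 1 minus array 2 there was −1.85 on the log2 scale, so the A20 difference after resection of −1.19 ± 0.52 (adjusted p = 0.232) was within their spread.

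Sult1a1, the phenol sulfotransferase, had 3524 and 7173 in post-A20, 2199 and 2479.8 in pre-A20, 3072 and 3040.3 in post-βgal and 1371 and 2319.8 in pre-βgal. The arrays after resection were above those before it for each transgene, with differences of 1.10 ± 0.34 in A20 livers and 0.77 ± 0.34 in βgal livers, neither called (adjusted p = 0.15 and 0.212). The other 6 SULT genes tested were not called in any comparison. Sult1c1 was −0.53 ± 0.14 with A20 before resection (adjusted p = 0.0761) and Sult1d1, which sulphates catecholamines in mouse, was 0.65 ± 0.27 averaged over resection (adjusted p = 0.158). Sult2a2, Sult2b1, Sult4a1 and Sult6b1 had differences between −0.25 and 0.18 in the 4 comparisons of 2 groups.

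**Figure D3:**
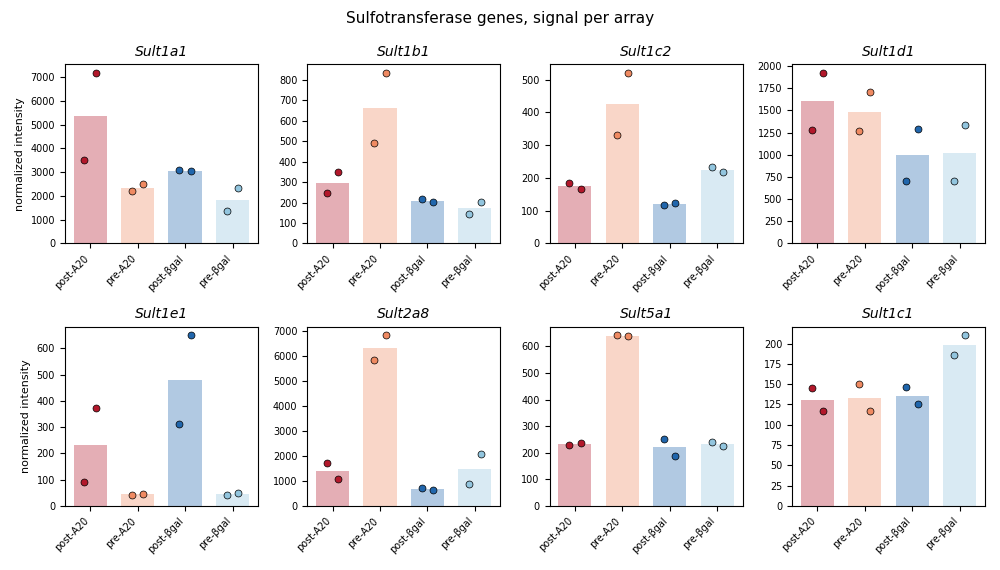
Normalized intensity (linear scale from 0) of 8 sulfotransferase genes, with a point for each array and a bar for the mean of the 2 arrays, for post-A20, pre-A20, post-βgal and pre-βgal. The pre-A20 arrays of Sult5a1 lie at 642 and 639 above all other arrays, and Sult1e1 is above 90 only after resection, where its replicates are far apart.

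The GST alpha genes fell with resection in 3 of 3 cases, averaged over transgene, and none was called for A20. Gsta2 had 613 and 394 on the post-A20 arrays, 1694 and 1933 on pre-A20, 1141 and 919 on post-βgal and 1940.2 and 1339.7 on pre-βgal. It fell in A20 livers by 1.84 ± 0.26 (adjusted p = 0.0145, 0.136 without pre-A20 array 2), while the difference in βgal livers was −0.65 ± 0.26 (adjusted p = 0.182). The A20 difference was 0.16 ± 0.26 before resection and −1.03 ± 0.26 after it (adjusted p = 0.741 and 0.0909), and the interaction of −1.20 ± 0.37 was not called (adjusted p = 0.188). Gsta2 and Gsta1 are near-identical, so the signal may hold both.

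Gsta3, which in mouse detoxifies aflatoxin epoxide, had 4949 and 3494 in post-A20, 7115 and 7227 in pre-A20, 2537 and 2646 in post-βgal and 4629 and 7184 in pre-βgal. It fell with resection in βgal livers, −1.15 ± 0.23 (adjusted p = 0.0377, 0.185 without post-βgal array 1), and averaged over transgene, −0.97 ± 0.17 (adjusted p = 0.0125, 0.0597 without post-A20 array 2). Its other probe set fell by more, to 645 and 397 in post-A20, against 936 and 1524 in pre-A20, and to 295 and 208 in post-βgal, against 1044 and 899 in pre-βgal. Gsta4, which clears 4-hydroxynonenal, a product of lipid peroxidation, had 1493 and 978 on the post-A20 arrays, 2217 and 3083 on pre-A20, 1399.7 and 1379.8 on post-βgal and 2664 and 2653 on pre-βgal. The arrays before and after resection did not overlap, and it fell averaged over transgene, −1.02 ± 0.17 (adjusted p = 0.0111, 0.0502 without post-βgal array 2).

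The 7 GST mu genes lie together on chromosome 3 (GRCm38.p6 chr3:107895854-108045179, 149.3 kb), and their products share substrates such as epoxides. With A20, 5 of 7 had lower signals both before and after resection, Gstm5 by no more than 0.09 on the log2 scale, while Gstm6 was 0.78 before and −0.08 after it and Gstm4 −0.37 before and 0.17 after it. All 7 had lower signals with resection averaged over transgene. Gstm3 had 2673 and 2429 in post-A20, 2843 and 2493 in pre-A20, 3107 and 3115 in post-βgal and 5504 and 5133 in pre-βgal. The pre-βgal arrays were apart from the other 6. Gstm3 fell with A20 before resection by 0.99 ± 0.15 (adjusted p = 0.0192, 0.16 without pre-A20 array 2) and with resection in βgal livers by 0.77 ± 0.15 (adjusted p = 0.0345, 0.188 without post-βgal array 1), while the resection difference in A20 livers was −0.06 ± 0.15 (adjusted p = 0.88) and the interaction 0.71 ± 0.22 (adjusted p = 0.184). Its other probe set fell by 1.73 with A20 before resection.

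Gstm7 had 594 and 597 on the post-A20 arrays, 1088 and 1041 on pre-A20, 613 and 595 on post-βgal and 1049 and 1314 on pre-βgal. The 4 arrays after resection lay between 594 and 613, and the 4 before it at 1041 or higher. It fell with resection in both transgenes, −0.82 ± 0.17 (adjusted p = 0.0474, 0.227 without post-A20 array 2) in A20 livers and −0.94 ± 0.17 (adjusted p = 0.0239, 0.14 without post-βgal array 1) in βgal livers. Its other, dimmer probe set stayed between 371 and 449 on all 8 arrays, with a resection difference of 0.05 averaged over transgene, so the fall was read by 1 of its 2 probe sets.

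Gstm2 had 2249 and 3022 in post-A20, 2502 and 2519 in pre-A20, 3568 and 3365 in post-βgal and 5201 and 3837 in pre-βgal. It fell with A20 averaged over resection, −0.62 ± 0.14 (adjusted p = 0.0388, 0.125 without post-βgal array 1). Gstm6 had 554 and 561 on the post-A20 arrays, 1517 and 1329 on pre-A20, 545 and 638 on post-βgal and 591 and 1144 on pre-βgal, and fell with resection averaged over transgene, −0.90 ± 0.20 (adjusted p = 0.0337, 0.122 without post-A20 array 2). Gstm4 had 1219 and 974 in post-A20, 1448 and 1519.7 in pre-A20, 1135 and 822 in post-βgal and 2302 and 1614 in pre-βgal, and also fell with resection on average, −0.71 ± 0.17 (adjusted p = 0.0448, 0.177 without post-A20 array 2). Gstm1 had 8773 and 7687 on the post-A20 arrays, 11023 and 9638 on pre-A20, 9507 and 10324 on post-βgal and 11764 and 12352 on pre-βgal. Its 4 probe sets were lower with A20 and with resection on average, with log2 differences of −0.25 to −0.41 and of −0.30 to −0.68, and the probe set used was not called (adjusted p = 0.115 and 0.0872). Gstm5 differed by no more than 0.19 in any comparison of 2 groups.

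Of GST pi, Gstp3 had 2074 and 1067 in post-A20, 3451 and 3414 in pre-A20, 3262 and 2714 in post-βgal and 6246 and 4500.0 in pre-βgal. It fell with resection averaged over transgene, −1.01 ± 0.21 (adjusted p = 0.028, 0.107 without post-βgal array 2), and its A20 average of −0.81 ± 0.21 just missed the threshold (adjusted p = 0.0521). Gstp1 had 15162 and 13911 on the post-A20 arrays, 17388 and 16787 on pre-A20, 16796 and 15361 on post-βgal and 17862 and 17204 on pre-βgal, near the highest value in the whole table, 20936, and was not called. Gstz1, maleylacetoacetate isomerase of tyrosine breakdown, had 4071 and 4354 in post-A20, 5077 and 5829.9 in pre-A20, 2185 and 2452 in post-βgal and 2423 and 4464 in pre-βgal. Gstz1 rose with A20 averaged over resection, 0.79 ± 0.18 (adjusted p = 0.0384, 0.125 without pre-A20 array 2).

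Gstt4 had 83.8 and 76.4 on the post-A20 arrays, 81.5 and 85.0 on pre-A20, 72.5 and 63.2 on post-βgal and 61.1 and 63.6 on pre-βgal, and rose with A20 averaged over resection, 0.27 ± 0.06 (adjusted p = 0.0405, 0.123 without pre-A20 array 2), a small change at low signal. Gstt3 had 1043 and 1389 in post-A20, 897 and 865 in pre-A20, 1755 and 1462 in post-βgal and 668 and 1274 in pre-βgal. Its resection differences were 0.44 ± 0.29 in A20 livers and 0.78 ± 0.29 in βgal livers, opposite to those of Gstt1, −0.53 ± 0.18 and −0.45 ± 0.18, and none of these was called. Gstt1 had 2604 and 2456 on the post-A20 arrays, 3450.3 and 3886 on pre-A20, 2806 and 2146 on post-βgal and 3588 and 3124 on pre-βgal. Gstk1, found in mitochondria and peroxisomes, had 2125 and 1622 in post-A20, 2524 and 2581 in pre-A20, 2291 and 2316 in post-βgal and 3375 and 3168 in pre-βgal, and Gsto1, which reduces dehydroascorbate, had 1191 and 1321 on the post-A20 arrays, 1520.1 and 1197 on pre-A20, 1167 and 1127 on post-βgal and 1540.0 and 1812 on pre-βgal. Neither was called, and the 2 probe sets of Gsto1 had opposite A20 differences before resection, −0.31 ± 0.19 and 0.77. Gstt2 was not called either.

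The microsomal enzymes form another protein family, in the membranes of the endoplasmic reticulum. Mgst3 had 589 and 429 in post-A20, 713 and 734 in pre-A20, 749.7 and 920.4 in post-βgal and 1004 and 1203 in pre-βgal. It fell with A20 averaged over resection, −0.65 ± 0.14 (adjusted p = 0.0321, 0.116 without post-A20 array 2), whereas its other, dimmer probe set lay between 312 and 401 on all arrays, with a difference of 0.06. Mgst1 had 10102 and 10962 on the post-A20 arrays, 11696 and 10866 on pre-A20, 9265 and 9455 on post-βgal and 7989 and 9946 on pre-βgal. Its A20 difference of 0.34 ± 0.13 before resection was not called (adjusted p = 0.176), and Mgst2 differed by no more than 0.12 in any comparison of 2 groups.

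**Figure D4:**
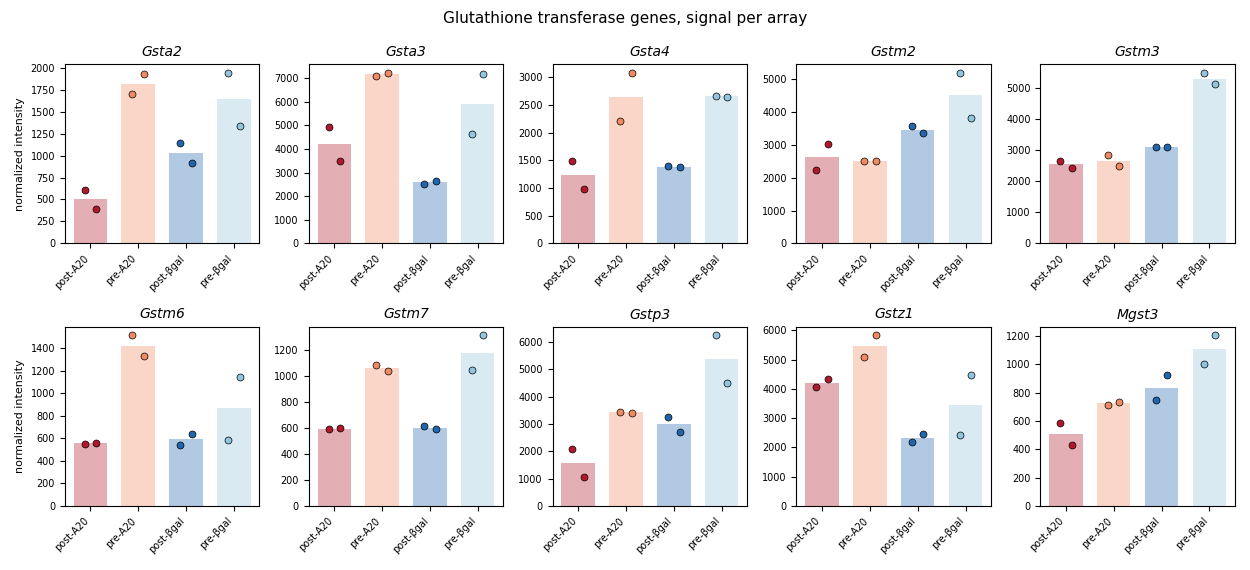
Normalized intensity (linear scale from 0) of 10 glutathione transferase genes, with a point for each array and a bar for the mean of the 2 arrays, for post-A20, pre-A20, post-βgal and pre-βgal. Gsta4 and Gstm7 are lower on every array after resection than on every array before it, and the pre-βgal arrays of Gstm3 lie at 5504 and 5133 above all others.

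By family, A20 before resection had median log2 fold changes of 1.31 in UGT3, 0.78 in UGT2, 0.28 in SULT, 0.16 in GST alpha, −0.08 in MGST, −0.23 in GST mu and −0.33 in GST pi, against −0.03 over all genes tested. After resection the A20 medians were 0.80, 0.39, 0.10, −0.20, 0.10, −0.09 and −0.57 in the same order of families, against 0.03. The UGT2, UGT3 and SULT medians were thus above that of all genes at both times, and those of GST mu and pi below it. UGT3 and GST pi had only 2 genes each. The 1 gene of GST zeta was also above at both times (0.72 and 0.86), and the 1 gene of GST kappa below (−0.36 and −0.31). GST alpha, theta and omega and MGST each changed side. With resection, the medians in A20 livers were −0.80 in UGT3, −0.77 in UGT2, −1.10 in GST alpha, −0.33 in GST mu and −0.11 in SULT, and in βgal livers −0.29, −0.42, −0.93, −0.47 and 0.04. Whether the families differ from one another was not tested.

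Markers of other cells differed between the groups as well. The 4 neutrophil markers tested of 6 listed summed to 1238 to 1536 in post-A20, 912 to 945 in pre-A20, 4036 to 4787 in post-βgal and 1941 to 2719 in pre-βgal. Before resection, 3 of 4 were called lower with A20, S100a8, S100a9 and Csf3r, against 3.32% of all genes. Ngp was not called, with 501 and 476 in pre-A20 and 414 and 483 in pre-βgal. No tested marker was at 0, the lowest of these being S100a9 at 114 on a pre-A20 array. The 6 macrophage markers summed to 4907 to 5453 in post-A20, 3253 to 3416 in pre-A20, 4123 to 5266 in post-βgal and 5396 to 6029 in pre-βgal. With A20, 1 of 6 was called lower before resection and 0 of 6 were called after it. Averaged over resection, 1 was called lower with A20, Cd68, and 1 higher, Marco. Alas2, of haem synthesis and the only erythroid marker tested of 4 listed, was highest on the pre-A20 arrays, as were many members, with 1439 and 1333 in post-A20, 3669 and 3720.4 in pre-A20, 1657 and 755 in post-βgal and 2089.5 and 1550.2 in pre-βgal. It was called lower with resection averaged over transgene, −1.04 ± 0.23 (adjusted p = 0.0358), and its A20 difference before resection of 1.03 ± 0.33 was not called (adjusted p = 0.109). The 6 stellate and fibroblast markers summed to 4785 to 5926 in post-A20, 5619 to 5647 in pre-A20, 3976 to 4144 in post-βgal and 3724 to 4586 in pre-βgal, and 1 of 6, Col3a1, was called higher with A20 averaged over resection. Of the 9 hepatocyte markers, Apob was called higher with A20 after resection and in both averages, by 1.60 ± 0.29, 1.37 ± 0.20 for A20 and 1.05 ± 0.20 for resection (adjusted p = 0.0418, 0.0109 and 0.0207), and none was called in the other 4 comparisons. With resection averaged over transgene, S100a8, S100a9 and Cd68 were called higher and Marco lower. Of the 6 endothelial markers, Lyve1 (1.61) and Cdh5 (0.56) were called higher and Kdr (−0.90) lower in that comparison (adjusted p = 7.5e-04, 0.0431 and 0.00882). Lyve1 was also called lower with A20 averaged over resection. No biliary or T and NK cell marker was called in any comparison. Calls of these markers were not tried with arrays left out. The part of these signals in the members' differences was not tested.

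Donor supply, transport and regulators were read from 7 lists of genes around the families. Of 12 regulators tested, 1 was called higher with A20 before resection and 1 after it, Nr1i3 in both cases, which encodes CAR. Of the 29 calls of genes on these lists over all comparisons, 4 were kept with each array left out in turn, namely Nr1i3 with A20 averaged over resection, and Cebpa, Nnmt and Inmt with resection averaged over transgene, and the highest adjusted p of the others was 0.0548 to 0.271. Nr1i3 had 1055 and 1588 in post-A20, 1428 and 1496 in pre-A20, 302 and 299 in post-βgal and 512 and 806 in pre-βgal. It rose with A20 by 1.17 ± 0.25 before resection (adjusted p = 0.0416) and by 2.05 ± 0.25 after it (adjusted p = 0.0143). Ppara had 1597 and 1652 on the post-A20 arrays, 1556 and 2279 on pre-A20, 575 and 899 on post-βgal and 573 and 971 on pre-βgal, and rose averaged over resection by 1.24 ± 0.22 (adjusted p = 0.0177). Cebpa, a hepatocyte transcription factor, had 1795 and 1636 in post-A20, 5543 and 3235 in pre-A20, 1234 and 1168 in post-βgal and 2258 and 2974 in pre-βgal. It was −1.30 ± 0.26 with resection in A20 livers (adjusted p = 0.0473) and −1.20 ± 0.18 averaged over transgene (adjusted p = 0.00805). Nfe2l2, which encodes NRF2, had an A20 difference of 0.00 ± 0.39 before resection (adjusted p = 0.998).

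Of the 9 NRF2 targets tested outside the families, 0 rose and 2 fell with A20 before resection, Nqo1 by 0.82 and Srxn1 by 1.40 on the log2 scale (adjusted p = 0.044 and 0.0439), and Osgin1 fell by 1.11 with resection in βgal livers (adjusted p = 0.039). Of the 5 genes of UDP-glucuronic acid supply, 1 rose with A20 averaged over resection, Slc35d1, which carries the sugar nucleotide into the endoplasmic reticulum, by 0.60 ± 0.13 (adjusted p = 0.0308). Of the 6 genes of sulphate donor supply, 1 fell with resection in βgal livers, Papss2, a PAPS synthase, with 1492 and 1495 on the post-A20 arrays, 2264 and 1999 on pre-A20, 1346 and 1047 on post-βgal and 2843 and 1991 on pre-βgal and a difference of −0.99 ± 0.22 (adjusted p = 0.045). Of the 10 genes of glutathione supply, Ggct fell by 1.15 with A20 before resection (adjusted p = 0.0365), and Chac2 and Cth rose averaged over resection, by 0.96 ± 0.21 and 0.86 ± 0.21 (adjusted p = 0.0317 and 0.0448).

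Of the 7 transport genes, 2 rose with A20 averaged over resection, Slc10a1 by 1.19 ± 0.19 and Slco1b2 by 1.11 ± 0.18 (adjusted p = 0.0143 and 0.0138), and Slco1b2 was also called before resection. Both encode carriers that take bile acids up from blood, and none of the 5 ABC export pumps was called. Of 11 other conjugating enzymes, Nnmt, which methylates nicotinamide, rose with resection in both transgenes, by 2.91 ± 0.41 in A20 livers and 3.04 ± 0.41 in βgal livers (adjusted p = 0.0143 and 0.01). Averaged over transgene, Inmt, a methyltransferase of indoleamines, fell by 1.96, Baat, which conjugates bile acids to amino acids, by 0.47 and Ephx1, the microsomal epoxide hydrolase, by 0.45 (adjusted p = 0.00862, 0.0483 and 0.0377). Tpmt, which methylates thiopurines, rose by 0.62 ± 0.14 with A20 averaged over resection (adjusted p = 0.0321).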

How the data were processed

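Liver RNA of 8 pools of 3 mice was measured on 8 arrays, 2 in each of 4 groups. For every probe set the authors deposited a normalized intensity, not log-transformed. Their methods name dChip with invariant set normalization and perfect-match probes, and the sample records name MAS5. The sources used here do not say which of them gave the table, and no further scaling was applied.

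Symbols came from the platform annotation. Of 45101 probe sets, 932 with several symbols, 9160 with none and 64 controls were left out. A probe set entered if any group mean reached 40, the brightest probe set on average stood for its gene, 16 was added before log2, and 17790 genes were fitted in R 4.3.3 with limma 3.58.1 (a mean for each group, variances moderated along a trend on signal, 4 residual degrees of freedom). Tests were 2-sided with Benjamini-Hochberg adjustment over all genes. The 7 comparisons were pre-A20 against pre-βgal, post-A20 against post-βgal, post-A20 against pre-A20, post-βgal against pre-βgal, the average of each factor, and their interaction.

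Genes given per array were those called in any comparison (up to 30), the one with the highest mean signal in each family, and the 3 highest and 3 lowest fold changes of each comparison of 2 groups with arrays that did not overlap. Members, lists of partner genes and of cell type markers were chosen with earlier results of these data known. All 46 member symbols matched RefSeq (GRCm38.p6). Alternatives tried were other scalings, filters, offsets, variance models, probe set rules, call rules, blocks, an RNA integrity covariate and leaving out arrays. The fit was tested on simulated data. No protein sequences were used here, and the number of arrays limits the precision.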

Additional observations from a re-analysis of the deposited data

Results flagged for a closer look

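Gsto1 was picked out because the A20 difference had opposite signs before and after resection on arrays that did not overlap. The difference was −0.31 ± 0.19 before and 0.13 ± 0.19 after resection on the log2 scale, so that the difference after minus that before was 0.43. By limma's interaction test this was not called (adjusted p = 0.416). Its other probe set had 0.77 before and 0.24 after resection, with no change of sign.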

How the results depend on the processing

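Counts are of the 44 members. Counts for A20 before, A20 after, resection in βgal livers, resection in A20 livers, A20 averaged, resection averaged and the interaction were 9, 0, 6, 8, 17, 17 and 0. Quantile normalization, median centring, both other filters, both other offsets, a floor of 20, the mean of a gene's probe sets and a fit without a variance trend kept each count within 1.5 times. With every probe set tested, counts were 5 for A20 before, 2 for resection in βgal livers, 2 in A20 livers and 9 for A20 averaged. With only the 4 arrays compared, they were 4 for A20 before, 5 for A20 after and 2 for resection in βgal livers. An RNA integrity covariate gave 1 for A20 after, 15 for resection in βgal livers, 18 in A20 livers, 28 for resection averaged and 1 for the interaction. A 90% interval with its lower end at a fold change of 1.5 or more gave 3 for resection in βgal livers, 4 for A20 averaged, 8 for resection averaged and 3 for the interaction. Without both βgal arrays of number 1, counts were 1 for A20 before, 5 for A20 averaged and 0 for resection in βgal livers. A variance prior over all probe sets, chosen after seeing the data, gave 3 for resection in βgal livers and 4 in A20 livers. The cause of these shifts was not tested, beyond the fewer arrays in some fits.

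No source ties the replicate numbers to mice, and they were not taken as a pairing, although resected and remnant liver may come from the same mice. Deviations of equal numbers correlated at 0.617 between the βgal groups, −0.0177 between the A20 groups and −0.145 to 0.156 between the other 4 pairs of groups. The replicate block over all groups gave 10, 0, 7, 8, 19, 17 and 0 calls in the order above. With a replicate block within each transgene, more members were called: 10 for resection in βgal livers, 17 in A20 livers, 26 for resection averaged and 2 for the interaction.

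With each array left out in turn, counts ran from 0 to 18 for A20 before, 0 to 4 for A20 after, 0 to 9 for resection in βgal livers, 1 to 18 in A20 livers, 2 to 22 for A20 averaged, 7 to 19 for resection averaged and 0 to 3 for the interaction. No called gene changed direction under any alternative. No alternative was set to read a gene through its dimmer probe set, and those of Gstm7 and Mgst3 did not show the change called. No median over members moved by more than the spread of replicates, a median residual SD of 0.197. That limit exceeded the size of the medians for A20 before, A20 after, A20 averaged and the interaction, so it could not show them stable. They ran from 0.14 to 0.24, 0.04 to 0.15, 0.07 to 0.20 and −0.20 to −0.01. With 2 arrays per group, a difference that was not called may still be present.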

Other observations

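Probe sets that name several symbols were left out of the tests, and 5 of them name genes of these families. The 3 of the Ugt1a locus, which encodes the enzymes that glucuronidate bilirubin and many drugs, each name 8 symbols. One of them read 7880 and 7793 in post-A20, 10581 and 9104 in pre-A20, 6858 and 6999.5 in post-βgal and 8155 and 9394 in pre-βgal, and all arrays after resection were below all arrays before it. The second read 4672 and 4205 in post-A20, 6240.1 and 5403 in pre-A20, 4416 and 4133 in post-βgal and 6164 and 5462 in pre-βgal, with the same split. The third read 4006 and 3871 in post-A20, 6391 and 5462 in pre-A20, 2839 and 3869 in post-βgal and 2352 and 5278 in pre-βgal, where the pre-βgal arrays were far apart. These values were not tested. The probe set of Gsta1, Gsta2 and Gm3776 read 1578 and 659 in post-A20, 2729 and 2594 in pre-A20, 1891 and 2243 in post-βgal and 3098 and 3613 in pre-βgal, lower on each array after resection than on each array before it. The probe set of Ugt2a1 and Ugt2a2 read 169 and 174 in post-A20, 217 and 209.6 in pre-A20, 141 and 134 in post-βgal and 139.7 and 139 in pre-βgal.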
